A study of Mus musculus with 12 samples.

Results

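The interferon regulatory factors (IRFs) measured here were Irf1, Irf2, Irf3, Irf4, Irf5, Irf7, Irf8 and Irf9, 8 genes of 43453 in the count matrix. Each was taken by its gene name, and for each the transcript row with the highest total was used. All 8 passed the filter on low counts in every comparison.

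RNA was sequenced from bone marrow-derived macrophages (BMDMs) of C57BL/6 mice, grown for 7 days in 50 ng/mL M-CSF, in 4 column groups of 3 libraries each. The headings, in the order used for values listed below, are LPS- tlr4f/f for the first columns, LPS- tlr4f/f-lysM-cre for the next, then LPS+ tlr4f/f, with LPS+ tlr4f/f-lysM-cre last. LPS+ stands for 1 µg/mL lipopolysaccharide for 6 h. All mice carried the floxed tlr4 allele, and the lysM-cre mice also carried Cre recombinase driven from the Lyz2 locus, which deletes tlr4 in myeloid cells. Nothing used here stated whether the 3 libraries of a group came from separate mice, so the p-values measure only the spread between these libraries, which may be technical.

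The headings LPS- tlr4f/f-lysM-cre, for one of the middle column groups, and LPS+ tlr4f/f, for the other, may be exchanged. Tlr4 was at 114 CPM (read counts scaled to library size by the trimmed mean of M values) in the LPS- tlr4f/f columns, 109 CPM in the LPS- tlr4f/f-lysM-cre columns, 27.9 CPM in the LPS+ tlr4f/f columns and 25.5 CPM in the LPS+ tlr4f/f-lysM-cre columns. Lyz2, whose locus carries Cre, averaged 13113, 7574, 11.9 and 62.0 CPM in the same order. Il1b, a gene induced by lipopolysaccharide, averaged 3.70, 4223, 3.23 and 2588 CPM, so the second and the fourth column groups were high. As headed, Tlr4 was low in both LPS+ column groups and Il1b high in both lysM-cre column groups. With the middle headings exchanged, Tlr4 was low in both lysM-cre column groups and Il1b high in both LPS+ column groups. Each comparison below is named by its column headings and is given with its meaning as headed and with its meaning if the middle headings are exchanged. The values do not depend on the reading, and neither does the interaction contrast.

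IRFs are transcription factors that bind a shared DNA element in the promoters of interferons and interferon-stimulated genes. IRF3, IRF5 and IRF7 are activated by phosphorylation downstream of Toll-like receptors, so their activity is set in part after the protein is made. With STAT2, IRF9 is part of ISGF3, the complex that answers type I interferon. IRF1 drives interferon-gamma and inflammatory genes, IRF2 binds the same sites and can oppose it, IRF8 is a lineage factor of macrophages and dendritic cells, and IRF4 is tied to alternative activation.

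The promoters of 4 of the 8 members are shown with the motifs that interferon and inflammatory signals use. These are Irf1, Irf2 and Irf7, which were called between column groups, and Irf8, which like Irf2 held several matches. They were chosen with the matches known. Irf4 and Irf9 are not printed, although they were called between column groups too. The Irf4 window held 1 NF-kB match and the Irf9 windows none. Both Irf9 windows, from chr14:55603735 and chr14:55604329, began inside the gene, which GENCODE M21 starts at 55603571. The bases before that gene start were not searched. The windows reach from 250 bases before to 50 bases after the RefSeq transcript start (GRCm38.p6), and 11 windows covered all 8 members. Capitals mark matches, on either strand, to GAAA, any 2 bases and GAAA (the interferon-stimulated response element, ISRE, bound by IRFs and ISGF3), to TTCNNNGAA (the gamma-activated site, GAS, used in interferon-gamma signalling) or to GGG, any 3 bases, T, any base and CC (an NF-kB site). No match overlapped another. The 250 bases before the start are printed 5′ to 3′ along the gene's strand.
Irf1, chr11:53769764-53770013, plus strand: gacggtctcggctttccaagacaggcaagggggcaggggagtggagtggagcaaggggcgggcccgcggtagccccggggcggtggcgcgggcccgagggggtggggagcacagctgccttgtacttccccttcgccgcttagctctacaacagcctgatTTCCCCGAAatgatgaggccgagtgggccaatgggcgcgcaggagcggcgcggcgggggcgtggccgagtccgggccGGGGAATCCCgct
Irf2, chr8:46739495-46739744, plus strand: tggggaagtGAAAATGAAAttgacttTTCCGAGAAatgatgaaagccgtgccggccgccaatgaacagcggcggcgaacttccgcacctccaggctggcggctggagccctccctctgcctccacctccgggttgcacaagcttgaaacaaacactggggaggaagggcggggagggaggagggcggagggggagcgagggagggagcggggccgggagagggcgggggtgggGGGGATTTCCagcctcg
Irf7, chr7:141266425-141266674, minus strand: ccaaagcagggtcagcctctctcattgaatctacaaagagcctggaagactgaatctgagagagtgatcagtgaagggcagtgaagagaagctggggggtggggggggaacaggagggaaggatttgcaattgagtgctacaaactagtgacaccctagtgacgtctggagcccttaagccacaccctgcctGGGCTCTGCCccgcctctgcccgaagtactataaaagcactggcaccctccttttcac
Irf8, chr8:120736108-120736357, plus strand: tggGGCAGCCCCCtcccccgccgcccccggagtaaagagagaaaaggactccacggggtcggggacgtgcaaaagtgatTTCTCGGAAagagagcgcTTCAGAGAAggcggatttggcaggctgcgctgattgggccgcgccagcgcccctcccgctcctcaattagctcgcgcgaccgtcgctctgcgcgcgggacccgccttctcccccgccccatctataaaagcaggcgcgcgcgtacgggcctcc

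Over the full windows, an ISRE match was in 1 of 8 members (Irf2), a GAS match in 3 of 8 (Irf1, Irf2 and Irf8) and an NF-kB match in 6 of 8 (all but Irf3 and Irf9). Of all 32851 RefSeq promoter windows, 3.44% held the ISRE letters, 8.30% the GAS letters and 17.4% the NF-kB letters. These shares are per window, whereas members were counted by gene, and Irf1, Irf8 and Irf9 had 2 windows each. Irf1 had its GAS match 90 to 82 bases before the start and its NF-kB match 13 to 4 bases before it. Irf2 held all 3 motifs, and Irf7 held an NF-kB match only. A match is a description of these letters and not evidence of binding.

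Irf7, the master regulator of type I interferon genes, had the widest range. Its 3 libraries were at 785, 541 and 104 CPM in the LPS- tlr4f/f columns and at 1994, 2124 and 1778 CPM in the LPS- tlr4f/f-lysM-cre columns. They were at 95.9, 91.5 and 53.8 CPM in the LPS+ tlr4f/f columns and at 442, 414 and 440 CPM in the LPS+ tlr4f/f-lysM-cre columns. The LPS- tlr4f/f-lysM-cre libraries were above all others and the LPS+ tlr4f/f libraries below all others, while the LPS- tlr4f/f libraries spread across the LPS+ tlr4f/f-lysM-cre range, with replicate 3 alone near the LPS+ tlr4f/f level.

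Irf1, an activator of Nos2 and guanylate-binding protein genes, split the column groups in a different way. It averaged 45.0 ± 4.54 CPM (SD, n = 3) in the LPS- tlr4f/f columns and 53.9 ± 9.16 CPM in the LPS+ tlr4f/f columns. It was at 335, 492 and 248 CPM in the LPS- tlr4f/f-lysM-cre columns and at 230, 279.2 and 299 CPM in the LPS+ tlr4f/f-lysM-cre columns. The low groups overlapped each other, as did the high groups, and no low library reached a high one. Irf2 was at 101, 131 and 138 CPM in the LPS- tlr4f/f-lysM-cre columns, and all other libraries lay below them, between 48.7 and 90.0 CPM.

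Irf9, the DNA-binding subunit of ISGF3, was at 133, 146 and 145 CPM in the LPS- tlr4f/f-lysM-cre columns and at 55.1, 58.8 and 48.6 CPM in the LPS+ tlr4f/f columns. Its remaining column groups overlapped, at 85.1 ± 10.7 CPM in the LPS- tlr4f/f columns and 86.3 ± 0.605 CPM in the LPS+ tlr4f/f-lysM-cre columns (SD, n = 3). Irf3, a constitutive factor that acts after phosphorylation, stayed between 22.9 and 43.7 CPM in all 12 libraries. Irf5, which drives inflammatory cytokine genes, averaged 235, 434, 252 and 296 CPM in the order of the headings, and its LPS- tlr4f/f-lysM-cre libraries ranged from 312 to 526 CPM.

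Irf4 was the scarcest member. It had 18, 60 and 92 counts in the LPS- tlr4f/f columns, 58, 8 and 9 in the LPS- tlr4f/f-lysM-cre columns, 420, 270 and 474 in the LPS+ tlr4f/f columns and 123, 109 and 152 in the LPS+ tlr4f/f-lysM-cre columns. The mean levels were 0.996 ± 0.709, 0.695 ± 0.746, 8.01 ± 0.956 and 3.06 ± 0.273 CPM (SD, n = 3). The LPS+ tlr4f/f libraries thus stood above all others, in the column group where Irf7 and Irf9 were lowest. The column groups overlapped in Irf8. It ranged from 274 to 667 CPM in the LPS- tlr4f/f columns, from 276 to 1058 CPM in the LPS- tlr4f/f-lysM-cre columns, from 182 to 276 CPM in the LPS+ tlr4f/f columns and from 191 to 332 CPM in the LPS+ tlr4f/f-lysM-cre columns.

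**Figure D1:**
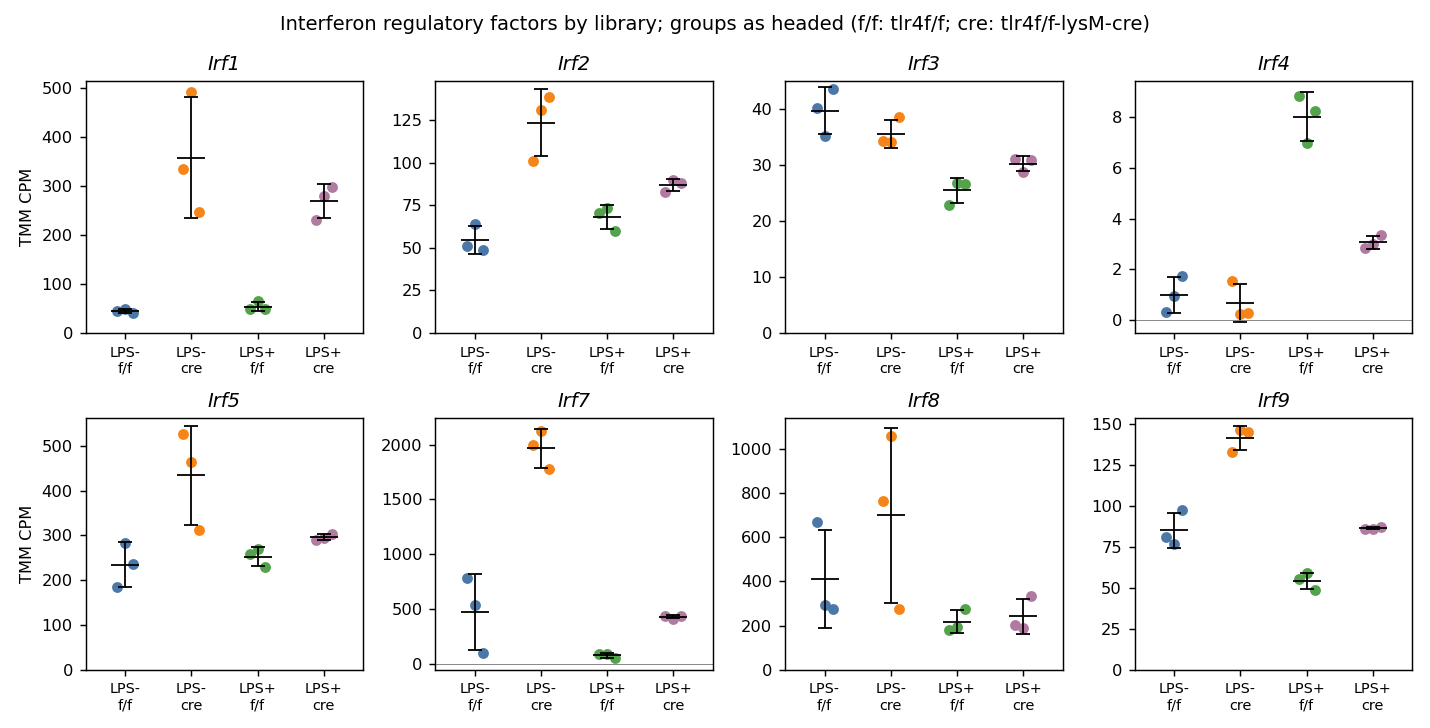
Level of each IRF (CPM, linear axes that start at or just below 0) in the 12 libraries, grouped by column heading; points are libraries, the horizontal mark is the mean and the bars are the SD. Irf1, Irf2, Irf5, Irf7, Irf8 and Irf9 had their highest mean in the LPS- tlr4f/f-lysM-cre columns, Irf3 in the LPS- tlr4f/f columns and Irf4 in the LPS+ tlr4f/f columns.

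Between neighbours in the order of mean level, the adjusted p from the pairwise fits were as follows. For Irf7 the order ran LPS- tlr4f/f-lysM-cre, LPS- tlr4f/f, LPS+ tlr4f/f-lysM-cre, LPS+ tlr4f/f, with 0.0555, 0.880 and 0.000664, although the libraries of the top pair did not overlap. Irf8 had the same order, with 0.333, 0.188 and 0.684. For Irf1 it ran LPS- tlr4f/f-lysM-cre, LPS+ tlr4f/f-lysM-cre, LPS+ tlr4f/f, LPS- tlr4f/f, with 0.275, 2.18e-05 and 0.299. That order also held for Irf2, with 0.0421, 0.00101 and 0.215, and for Irf5, with 0.0809, 0.00526 and 0.711. Irf9 ran LPS- tlr4f/f-lysM-cre, LPS+ tlr4f/f-lysM-cre, LPS- tlr4f/f, LPS+ tlr4f/f, with 0.00420, 0.867 and 0.0579. Irf4 ran LPS+ tlr4f/f, LPS+ tlr4f/f-lysM-cre, LPS- tlr4f/f, LPS- tlr4f/f-lysM-cre, with 3.27e-06, 0.0665 and 0.694. Irf3 ran LPS- tlr4f/f, LPS- tlr4f/f-lysM-cre, LPS+ tlr4f/f-lysM-cre, LPS+ tlr4f/f, with 0.409, 0.174 and 0.0103.

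The 8 members together, as level per kb of the transcript row, came to 357 to 833 CPM per kb in the LPS- tlr4f/f columns and 1442 to 2083 in the LPS- tlr4f/f-lysM-cre columns. They came to 310 to 337 CPM per kb in the LPS+ tlr4f/f columns and 631 to 716 in the LPS+ tlr4f/f-lysM-cre columns. Irf7 made up a mean of 37.8%, 59.8%, 13.4% and 35.2% of this sum in the order of the headings. By these means, Irf5 was the largest share in the LPS+ tlr4f/f columns only, at 35.7%. Irf4 made up at most 0.579% in any library.

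**Figure D2:**
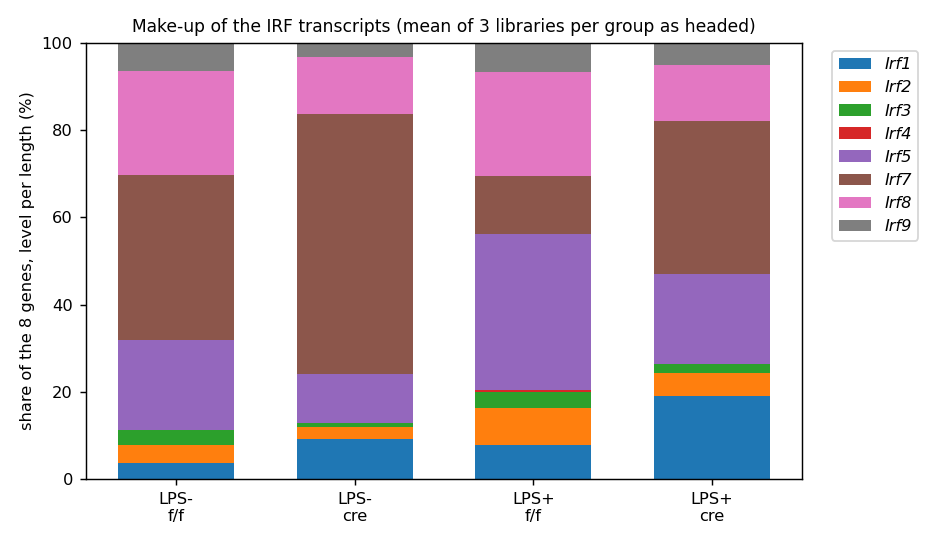
Share of each IRF in the summed level per length of the 8 genes (percent, mean of 3 libraries per column group). Irf7 took 59.8% in the LPS- tlr4f/f-lysM-cre columns and 13.4% in the LPS+ tlr4f/f columns, where Irf5 took 35.7%.

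Ratios of members within a library do not depend on the scaling between libraries. The Irf1 to Irf2 ratio of levels per length was 0.899 to 1.02 in the LPS- tlr4f/f columns and 0.806 to 1.02 in the LPS+ tlr4f/f columns. It was 2.08 to 4.37 in the LPS- tlr4f/f-lysM-cre columns and 3.23 to 3.94 in the LPS+ tlr4f/f-lysM-cre columns, without overlap between low and high groups. The Irf8 to Irf4 ratio was 34.6 to 56.5 in the LPS+ tlr4f/f columns, 108 to 166 in the LPS+ tlr4f/f-lysM-cre columns, 267 to 3631 in the LPS- tlr4f/f columns and 826 to 7137 in the LPS- tlr4f/f-lysM-cre columns. Irf9 stood at 0.923 to 0.986 of the level of Stat2, its ISGF3 partner, in the LPS+ tlr4f/f columns and at 0.191 to 0.254 in the LPS- tlr4f/f-lysM-cre columns, as Stat2 averaged 98.1 and 1122 CPM there.

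**Figure D3:**
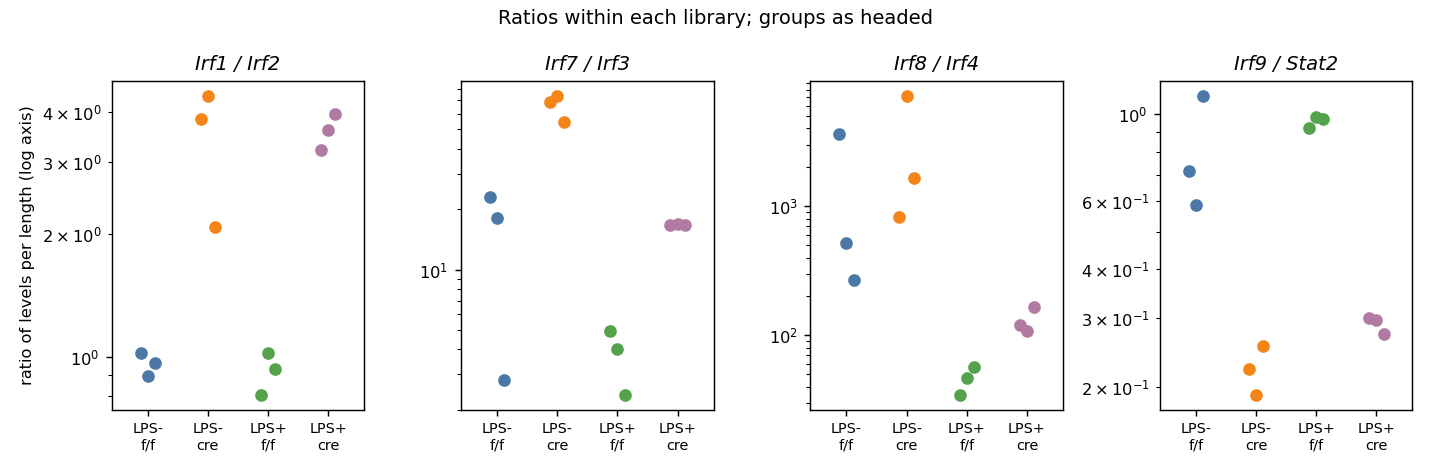
Ratios of levels per length within each library (log axes), by column group; each point is a library. Irf1 to Irf2 was between 0.806 and 1.02 in the LPS- tlr4f/f and LPS+ tlr4f/f columns and between 2.08 and 4.37 in the others.

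The LPS- tlr4f/f-lysM-cre columns against the LPS- tlr4f/f columns compare genotypes without LPS as headed, and LPS with no LPS in tlr4f/f cells if exchanged. Genes were called when they differed more than 2-fold with an adjusted p under 0.01. The median SD between replicates, as a percentage of a gene's mean, was 23.1%, 26.2%, 8.18% and 9.04% in the order of the headings. Counts of calls and adjusted p thus rest on unequal spread in different comparisons. Irf1 rose by 2.98 on the log2 scale (SE 0.276, adjusted p = 0.000886) and Irf2 by 1.17 (SE 0.189, adjusted p = 0.00479). These were 2 of 8 members, both higher, beside 17.1% of 14649 genes called and 9.26% called higher. The members' median log2 fold change was 0.81, and that of all genes -0.08. Irf9, at a log2 fold change of 0.72 (adjusted p = 0.00975), and Irf5, at 0.88 (adjusted p = 0.0378), stayed under the fold limit. Irf7 was at 2.03 (SE 0.674, adjusted p = 0.0555), with LPS- tlr4f/f libraries from 104 to 785 CPM. Irf7 was called by DESeq2 (2.12, adjusted p = 0.00164) and in a single fit of all 12 libraries (2.04, adjusted p = 0.00874). Without LPS- tlr4f/f replicate 3, Irf7 was at 1.54 and was called (adjusted p = 0.00963). The Irf2 call was lost (adjusted p from 0.0118 to 0.0200) without any 1 of the LPS- tlr4f/f libraries or without LPS- tlr4f/f-lysM-cre replicate 2 or 3.

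The LPS+ tlr4f/f-lysM-cre columns against the LPS+ tlr4f/f columns compare genotypes under LPS as headed, and LPS with no LPS in lysM-cre cells if exchanged. Irf1 rose by 2.33 on the log2 scale (SE 0.155, adjusted p = 2.18e-05) and Irf7 by 2.44 (SE 0.249, adjusted p = 0.000664). Irf4 fell by 1.38 (SE 0.143, adjusted p = 3.27e-06). These were 3 of 8 members, beside 21.8% of 14551 genes, 10.8% called higher and 10.9% lower, and the count was 3 with any single library left out. In a single fit of all 12 libraries Irf4 was not called (-1.39, adjusted p = 0.137). The members' median was 0.31, and that of all genes -0.02. Irf9 was at 0.68 (SE 0.066, adjusted p = 1.83e-06), Irf2 at 0.37 (adjusted p = 0.00101) and Irf5 at 0.24 (adjusted p = 0.00526), all under the fold limit. Irf8 was at 0.16 (SE 0.308, adjusted p = 0.684).

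The LPS+ tlr4f/f-lysM-cre columns against the LPS- tlr4f/f-lysM-cre columns compare LPS with no LPS in lysM-cre cells as headed, and genotypes under LPS if exchanged. Irf7 fell by 2.17 on the log2 scale (SE 0.121, adjusted p = 0.000724), and its libraries did not overlap. This was 1 of 8 members, beside 6.09% of 14245 genes called and 3.66% called lower. The members' median was -0.51, and that of all genes 0.03. The Irf7 call was lost without any 1 of the LPS+ tlr4f/f-lysM-cre libraries (adjusted p from 0.0119 to 0.0142), where only 4 to 15 of all genes were called, against 867 with all libraries. In a single fit of all 12 libraries it was not called (-2.19, adjusted p = 0.0138). Irf9 was at -0.70 (adjusted p = 0.00420), Irf8 at -1.51 (SE 0.476, adjusted p = 0.0581) and Irf4 at 2.12 (SE 0.708, adjusted p = 0.0679). Irf8 was called without LPS- tlr4f/f-lysM-cre replicate 3 (-1.92, adjusted p = 0.00764) and Irf4 without replicate 1 of that group (3.51, adjusted p = 0.00232).

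The LPS+ tlr4f/f columns against the LPS- tlr4f/f columns compare LPS with no LPS in tlr4f/f cells as headed, and genotypes without LPS if exchanged. No member was called, and the edgeR background was 0% of 14712 genes, of which 188 had an adjusted p below 0.05 and 3626 an unadjusted p below 0.05. Irf4 was at 3.03 (SE 0.580, adjusted p = 0.0597), Irf7 at -2.56 (SE 0.716, adjusted p = 0.105), Irf9 at -0.64 (SE 0.120, adjusted p = 0.0579) and Irf3 at -0.62 (SE 0.114, adjusted p = 0.0559). By DESeq2, Irf4 (adjusted p = 1.83e-06) and Irf7 (adjusted p = 0.00066) were called, beside 3.15% of all genes. The members' median was -0.25, and that of all genes -0.03.

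**Figure D4:**
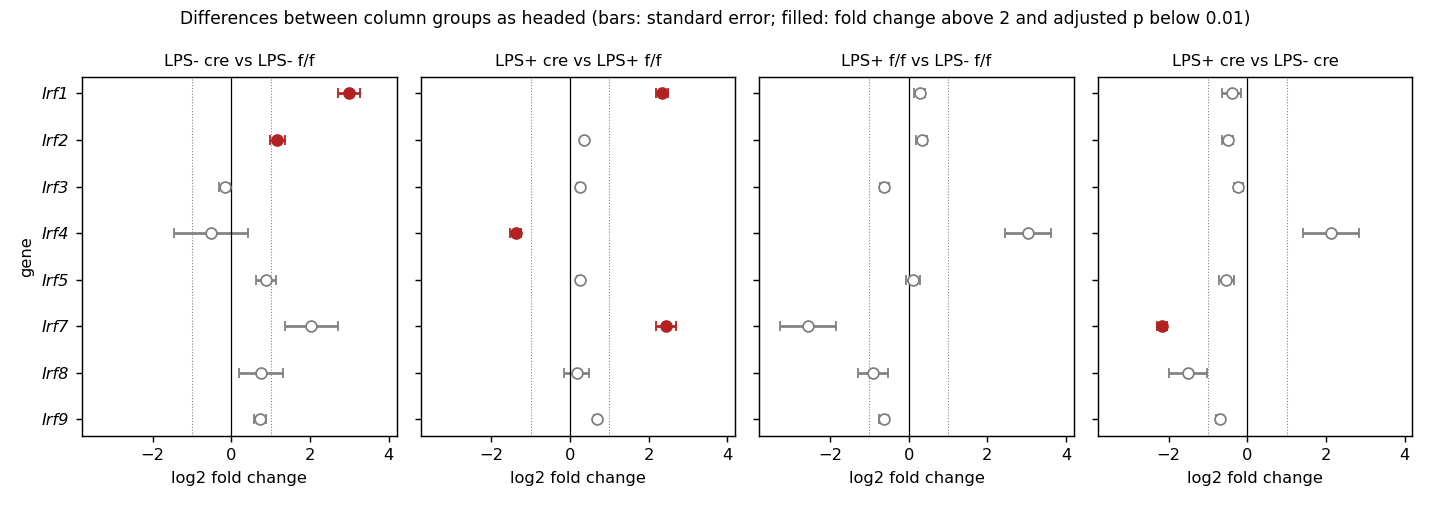
log2 fold change of each IRF with its standard error in the comparisons between column groups as headed; filled points are called. Irf1 was called in both comparisons of a lysM-cre with a tlr4f/f column group (2.98 and 2.33), and Irf7 moved by 2.44 and -2.17 in the comparisons where it was called.

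Between the remaining column groups, genotype and LPS both differ under either reading. Irf1 rose by 2.59 (SE 0.143, adjusted p = 0.000203) in the LPS+ tlr4f/f-lysM-cre against the LPS- tlr4f/f columns, whose headings do not change with the reading. It was the 1 member of 8 called, beside 13.4% of 14595 genes. Irf7 was at -0.14 (SE 0.643, adjusted p = 0.880) there. The LPS- tlr4f/f-lysM-cre against the LPS+ tlr4f/f columns compare lysM-cre cells without LPS with tlr4f/f cells under LPS as headed. If exchanged, they compare tlr4f/f cells under LPS with lysM-cre cells without LPS. There, 4 of 8 members were called beside 28.9% of 14595 genes. Irf7 rose by 4.61 (SE 0.270), Irf1 by 2.73 (SE 0.267) and Irf9 by 1.39 (SE 0.113), and Irf4 fell by 3.49 (SE 0.702, adjusted p = 0.00573). The Irf4 call was lost without any 1 of 5 libraries (adjusted p from 0.0104 to 0.0233).

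The interaction asks whether the difference between genotypes changed with LPS, and its value is the same under both readings. No member was called, beside 0.994% of 15792 genes by edgeR. Irf2 was at -0.82 (SE 0.203, adjusted p = 0.0371, and from 0.0155 to 0.116 with 1 library left out). Irf7 was at 0.38 with an SE of 0.738. Of the 8 members, Irf2, Irf3 and Irf5 had an unadjusted p below 0.05 (0.00197, 0.0239 and 0.0378), beside 3692 of 15792 genes. By an adjusted p below 0.05 alone, the members passing were 4 of 8 in the LPS- tlr4f/f-lysM-cre against the LPS- tlr4f/f columns (37.3% of all genes), 7 in the LPS+ tlr4f/f-lysM-cre against the LPS+ tlr4f/f columns (61.4%), 3 in the LPS+ tlr4f/f-lysM-cre against the LPS- tlr4f/f-lysM-cre columns (26.7%), 0 in the LPS+ tlr4f/f against the LPS- tlr4f/f columns (1.28%), 3 in the LPS+ tlr4f/f-lysM-cre against the LPS- tlr4f/f columns (40.7%), 8 in the LPS- tlr4f/f-lysM-cre against the LPS+ tlr4f/f columns (53.5%) and 1 in the interaction (6.99%).

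The genes around the IRFs were described by lists. Of 23 IRF3, IRF7 and ISGF3 targets, 23 rose in the LPS+ tlr4f/f-lysM-cre against the LPS+ tlr4f/f columns, with a median log2 fold change of 4.04 against -0.02 over all genes tested. For this and every list below, 10.8% of all genes were called higher and 10.9% lower in that comparison. Cxcl10, a chemokine for T cells, rose by 7.85 (SE 0.270). Ifnb1, the interferon-beta gene, had 0 counts in each LPS+ tlr4f/f library and 13, 17 and 23 in the LPS+ tlr4f/f-lysM-cre libraries, at least 6.62-fold higher against a floor of 3 counts per library. With Ifnb1 at that bound, the list's median was 3.93. In the LPS- tlr4f/f-lysM-cre against the LPS- tlr4f/f columns, 21 of 23 rose (median 4.28, all genes -0.08), beside 9.26% of all genes.

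In the LPS+ tlr4f/f-lysM-cre against the LPS- tlr4f/f-lysM-cre columns, 16 of the 23 fell, beside 3.66% of all genes, with a median of -1.34 beside 0.03 over all genes, and Ifnb1 fell by 3.15 (SE 0.349). Without any 1 of the LPS+ tlr4f/f-lysM-cre libraries, 0 of them were called, as with Irf7. In the LPS+ tlr4f/f against the LPS- tlr4f/f columns, 0 of 22 tested were called by edgeR (3 with an adjusted p below 0.05, and 11 called by DESeq2), all 22 had a negative value, and the median was -1.30. Of 22 targets with at least 10 counts in any LPS- tlr4f/f library, 17 had their lowest value in replicate 3, the library where Irf7 was lowest too. The same held for 17 of 20 IRF1 targets, 8 of 8 IRF5 targets and 6 of 8 genes of the IRF4 list. It held for 8 of 20 upstream genes, 5 of 9 receptor and kinase genes, 4 of 10 IRF8 targets and 7 of 17 partners. The share over all genes was not counted.

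Of 20 IRF1 targets, 19 rose in the LPS+ tlr4f/f-lysM-cre against the LPS+ tlr4f/f columns (median 2.80) and 18 in the LPS- tlr4f/f-lysM-cre against the LPS- tlr4f/f columns (median 3.84), as Irf1 did. Ciita, which controls MHC class II genes, was the exception in the former, at -0.77 (adjusted p = 0.104), and it was singled out after its value was seen. In the LPS+ tlr4f/f-lysM-cre against the LPS- tlr4f/f-lysM-cre columns, 10 of 20 fell, and Nos2, the inducible nitric oxide synthase, fell by 4.33 (SE 0.469), while Irf1 was at -0.39 (adjusted p = 0.275). Those 10 calls too were lost without any 1 of the LPS+ tlr4f/f-lysM-cre libraries.

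All 10 IRF5 targets, inflammatory cytokine and chemokine genes, rose in the LPS+ tlr4f/f-lysM-cre against the LPS+ tlr4f/f columns (median 7.38, or 6.23 with Il12a at its bound), while Irf5 itself was at 0.24. With at least 10 counts required in every library, 5 of them remained and all were called, beside 20% of 12704 genes in either direction. The others had fewer than 10 counts in at least 1 LPS+ tlr4f/f library and were not tested under that filter. Il12a had 0 counts in each LPS+ tlr4f/f library and 246, 346 and 309 in the LPS+ tlr4f/f-lysM-cre libraries, at least 114-fold higher. Il12b, Il23a, Il6 and Cxcl9 had at most 18 counts in any LPS+ tlr4f/f library. Both medians thus rest in part on fitted folds against few counts. Il12b stands in the IRF1, IRF8 and IRF5 lists. Of 10 IRF8 and PU.1 targets, 4 rose and 1 fell in the same comparison (median 0.53, beside 10.8% and 10.9% of all genes), and the gene that fell was Klf4, a monocyte factor, by 2.51 (SE 0.148).

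Of 9 tested genes of the IRF4 and alternative activation list, 3 rose and 1 fell in that comparison (median 0.54, beside 10.8% and 10.9% of all genes). The genes that rose were Kdm6b, a histone demethylase, and the chemokine genes Ccl17 and Ccl22, and the gene that fell was Clec10a, a lectin (-3.23, SE 0.473), as Irf4 did. Clec10a had 3, 7 and 19 counts in the LPS+ tlr4f/f-lysM-cre libraries, and Ccl17 had 1, 0 and 0 in the LPS+ tlr4f/f libraries. The fitted folds of both thus rest on few counts. Mrc1 was at -0.997 (adjusted p = 0.00783), just under the fold limit.

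Upstream of the IRFs, 9 of 20 genes rose in the LPS+ tlr4f/f-lysM-cre against the LPS+ tlr4f/f columns (median 0.84), led by Ifih1, a sensor of double-stranded RNA (3.31, SE 0.079). Ikbke, a kinase that phosphorylates IRF3 and IRF7, rose by 2.60 (SE 0.057). Of 9 interferon receptor, kinase and ISGF3 genes, 6 rose (median 1.26). Stat2 rose by 2.41 (SE 0.079) and Jak2 by 3.16 (SE 0.059), against 0.68 for Irf9. Of 16 tested partners and inhibitors of IRFs, 4 rose and 2 fell (median 0.03), beside the 10.8% and 10.9% of all genes. Batf, which pairs with IRF4 and IRF8, rose by 4.33 (SE 0.239), and Batf3 fell by 1.85 (SE 0.247).

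**Figure D5:**
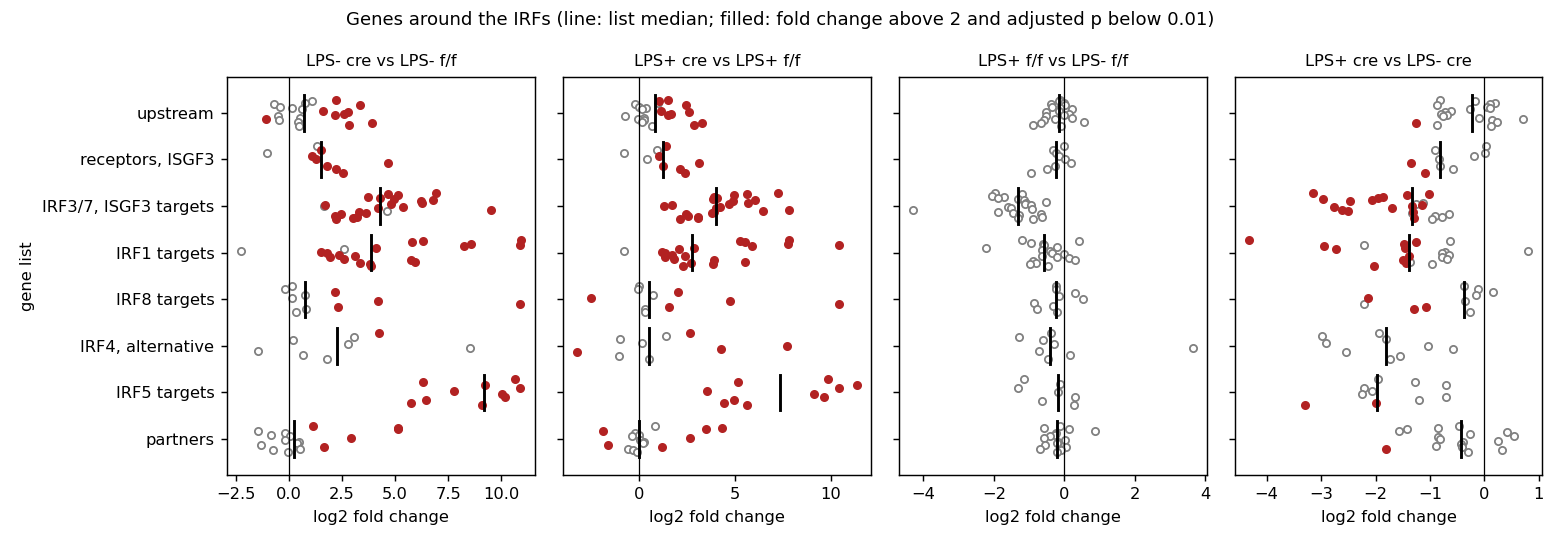
Fitted log2 fold change of the genes in the lists around the IRFs, by comparison of column groups as headed; points are genes, filled where called, and the line is the list's median. The IRF3, IRF7 and ISGF3 targets had medians of 4.28, 4.04, -1.30 and -1.34 from left to right, and a fitted value for Ifnb1 or Il12a against a group at 0 counts is no measured fold.

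Over the 12 libraries, the genes whose CPM followed Irf7 most closely among 12225 candidates were Bst2, Lst1 and Apol9b (Pearson r of 0.980, 0.979 and 0.978). Irf1 was followed by Rnf14 (0.995) and Icam1 (0.992), Irf9 by Arid3b (0.988) and Nupr1 (0.978), and Irf5 by Dirc2 (0.972) and Hspa8 (0.944). Irf4 was followed by LOC105244657 (0.956), Snx25 (0.931) and Ndufs1 (0.925), and Irf8 by Snrnp200 (0.923). These correlations describe 4 column groups and share the libraries' depth and scaling. Among the members themselves, Irf1 and Irf2 had r = 0.880, Irf7 and Irf9 0.872, and Irf4 was negative with each of the others, from -0.813 with Irf7 to -0.234 with Irf5.

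The libraries held 33577440 to 56445989 counts over genes. All 8 macrophage markers were detected in every column group, and they summed to 11598 to 26055 CPM in the LPS- tlr4f/f columns, 13854 to 18495 in the LPS- tlr4f/f-lysM-cre columns, 3221 to 3387 in the LPS+ tlr4f/f columns and 4792 to 5061 in the LPS+ tlr4f/f-lysM-cre columns. Lyz2, whose locus carries Cre, is among these markers and averaged 13113, 7574, 11.9 and 62.0 CPM in the order of the headings. Most of the lower sum in both LPS+ column groups was thus Lyz2 alone. The 8 neutrophil markers summed to 27.9, 14.9 and 192 CPM in the LPS- tlr4f/f-lysM-cre libraries and to at most 13.7 CPM in any other library. Most of this was S100a8 and S100a9. Ly6g averaged 0.0104 CPM in the LPS- tlr4f/f-lysM-cre columns and was at 0 in the other groups. The LPS- tlr4f/f-lysM-cre columns also held the highest means of Irf1, Irf2, Irf5, Irf7, Irf8 and Irf9. LPS- tlr4f/f-lysM-cre replicate 3, at 192 CPM, had the lowest Irf1, Irf5, Irf7 and Irf8 of its group and the highest Irf2. That library also had the highest sum of the 6 stromal markers, at 1462 CPM, beside 922 and 136 CPM in replicates 1 and 2. The 7 dendritic cell markers summed to 35.6 to 223 CPM in the LPS- tlr4f/f columns, 64.6 to 265 in the LPS- tlr4f/f-lysM-cre columns, 573 to 635 in the LPS+ tlr4f/f columns and 691 to 713 in the LPS+ tlr4f/f-lysM-cre columns. Nearly all of that was Itgax, and Flt3 and Siglech averaged at most 0.033 CPM in any group. The 6 stromal markers summed to 9.07 to 657 CPM, 136 to 1462 CPM, 20.4 to 25.0 CPM and 30.0 to 43.8 CPM in the same order. Their part in the IRF levels was not tested, and in bulk RNA fewer cells of a type and less RNA per cell cannot be told apart.

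In GRCm38 (mm10), GENCODE M21 places Irf1 at chr11:53770014-53778374, Irf2 at chr8:46739732-46847458, Irf3 at chr7:44997648-45002848, Irf4 at chr13:30749226-30766976, Irf5 at chr6:29526625-29541871, Irf7 at chr7:141262706-141266481 (the minus strand, the others plus), Irf8 at chr8:120736358-120756694 and Irf9 at chr14:55603571-55610030. The library preparation did not mark strand, so reads of overlapping genes cannot be told apart. Irf5 shares 411 of its 2905 exon bases with Tnpo3, Irf1 135 of 3976 with Gm17334, Irf9 123 of 5386 with Rnf31, Irf3 88 of 3442 with Bcl2l12 and Irf7 45 of 3776 with Phrf1. The Irf3 row used was a non-coding transcript. Irf3's coding row had 94.5% to 99.0% of its counts in each library.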

How the data were processed

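Libraries were sequenced from 12 BMDM samples in 4 column groups. Per the labels and the study's methods, the authors trimmed reads with Trimmomatic 0.36, used HISAT2 for alignment (mm10) and HTSeq for counting, and they deposited raw counts per transcript row (115140 rows). Here the row with the highest total was kept for each of 43453 genes. Pairs of column groups were fitted with edgeR 4.0.16 (filterByExpr, TMM, robust quasi-likelihood test), with Benjamini-Hochberg adjustment over all genes tested, and the interaction over 12 libraries. CPM used TMM factors over 12 libraries. Calls needed more than a 2-fold difference with an adjusted p under 0.01. The fits were tested on simulated counts. Alternatives were DESeq2 1.42.0, limma 3.58.1 (voom), RLE factors, other filters, a single fit of 12 libraries, a replicate block, an adjusted p below 0.05, summed rows and leaving out each library. The genes named are the members, the heading checks, Ifnb1 and Stat2, list genes called with the largest change and the genes most like each member; some genes under this rule are not reported here. List genes outside that rule (Ciita, Kdm6b, Ccl22, Clec10a, Mrc1, Ikbke and Batf3, and Klf4 in the comparison given) were chosen after their values were seen. The members and lists were chosen with earlier results of these data known. Limits on depth cover counting error only.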

Additional observations from a re-analysis of the deposited data

Results flagged for a closer look

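Irf2 was the only member with an adjusted p below 0.05 in the test of the interaction (log2 difference -0.82, adjusted p = 0.0371 by edgeR's quasi-likelihood test). It does not meet the criterion used for calls (more than 2-fold, adjusted p under 0.01), by which 0 members were called. The looser limit for listing it here, an adjusted p below 0.05, was settled after its value was seen, and 6.99% of all genes pass that limit. With 1 library left out, the Irf2 adjusted p ranged from 0.0155 to 0.116 by the same test, so that limit was not always met. As headed, the Irf2 log2 fold change between genotypes was 1.17 without LPS and 0.37 with LPS. If the middle headings are exchanged, the same values are the response to LPS in tlr4f/f cells and in lysM-cre cells.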

How the results depend on the processing

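The number of members called depended on the tool and threshold as follows. By DESeq2, 2 members were called in the LPS+ tlr4f/f against the LPS- tlr4f/f columns, beside 3.15% of all genes. It called 2 in the LPS+ tlr4f/f-lysM-cre against the LPS- tlr4f/f-lysM-cre columns, beside 14.1% of all genes. The single fit of 12 libraries called 0 members in the latter, beside 7.26% of all genes. In the LPS+ tlr4f/f-lysM-cre against the LPS+ tlr4f/f columns it called 13% of all genes but not Irf4 (adjusted p = 0.137). The voom fit called 2 in the LPS+ tlr4f/f-lysM-cre against the LPS- tlr4f/f columns, beside 16.4% of all genes. At an adjusted p below 0.05 with no fold limit, the counts were 3 (LPS+ tlr4f/f-lysM-cre against LPS- tlr4f/f-lysM-cre), 4 (LPS- tlr4f/f-lysM-cre against LPS- tlr4f/f), 7 (LPS+ tlr4f/f-lysM-cre against LPS+ tlr4f/f), 3 (LPS+ tlr4f/f-lysM-cre against LPS- tlr4f/f), 8 (LPS- tlr4f/f-lysM-cre against LPS+ tlr4f/f) and 1 (interaction). Leaving out 1 library gave 0 to 2, 1 to 2, 3 to 3, 1 to 1, 3 to 5 and 0 to 0 in the same order, and 0 to 0 in the LPS+ tlr4f/f against the LPS- tlr4f/f columns. The shares of all genes at an adjusted p below 0.05 are given above with the interaction. The causes were not tested.

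The libraries were not treated as paired, since nothing in the labels ties same-numbered libraries together and not every same-numbered pair correlated above 0.1: 5 of 18 pairs did (from -0.037 to 0.472), and 9 of 12 libraries correlated best with their own number, so whether the numbers mark a shared batch is not settled. With a replicate block, 1 member was called in the LPS- tlr4f/f-lysM-cre against the LPS- tlr4f/f columns (Irf2 had an adjusted p of 0.01005), beside 15% of all genes. Irf7 in the LPS+ tlr4f/f-lysM-cre against the LPS+ tlr4f/f columns had an adjusted p of 0.0154, where 22.3% of all genes were called. Irf7 in the LPS+ tlr4f/f-lysM-cre against the LPS- tlr4f/f columns was at 0.24. With the block, 7 of the IRF3, IRF7 and ISGF3 targets and 4 of the IRF1 targets were called in the LPS+ tlr4f/f-lysM-cre against the LPS- tlr4f/f-lysM-cre columns, beside 1.49% of all genes.

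With 1 library left out, the sign of 8 log2 values that were not called turned. They ranged from -0.022 to 0.28 for Irf5 in the LPS+ tlr4f/f against the LPS- tlr4f/f columns, from -1.89 to 0.12 for Irf4 in the LPS- tlr4f/f-lysM-cre against the LPS- tlr4f/f columns, from -0.13 to 0.36 for Irf8 in the LPS+ tlr4f/f-lysM-cre against the LPS+ tlr4f/f columns, from -0.62 to 0.42 for Irf7 and -0.039 to 0.13 for Irf9 in the LPS+ tlr4f/f-lysM-cre against the LPS- tlr4f/f columns, and in the interaction from -1.51 to 0.52 for Irf4, -0.16 to 0.88 for Irf7 and -0.14 to 0.014 for Irf9. Irf4, at 8 to 92 counts in the LPS- libraries, was the member most limited by depth.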
